A study of Homo sapiens with 21 samples.

Results

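Among the 23368 genes of an RNA-seq series in hTERT-HPNE cells, 107 had lower transcript levels 4 h after oxidative stress or DNA breakage and were back near the level of untreated cells by 24 h. hTERT-HPNE is a human pancreatic line immortalized with telomerase. Cells were left untreated or were treated with 300 μM H2O2, which causes oxidative stress, or with 400 ng/ml neocarzinostatin (NCS), a radiomimetic drug that breaks both DNA strands. RNA was collected 4, 8 or 24 h after treatment. The 7 groups held 3 biological replicates each, 21 libraries in all. No engineered allele other than the telomerase of the line is named for them. The study also made lines with fluorescent reporters, and its RNA-seq methods name only hTERT-HPNE cells. The medium was exchanged for fresh medium at treatment, and the untreated cells were those of time 0, so an effect of treatment and one of time in fresh medium cannot be told apart in a comparison with untreated cells. They can in a comparison of H2O2 with NCS at one time.

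The values were rLog values, which are log2 read counts normalized for library size with small differences between low counts shrunk. A change is the difference of 2 group means on this log2 scale. A gene was a member if its mean lay more than 0.5 below that of untreated cells at 4 h and no more than 0.3 below it at 24 h in the same treatment, and if its symbol did not begin with FOS, EGR, ID or KLF. This gave 94 members in H2O2 only, 10 in NCS only and 3 in both. The untreated, 4 h and 24 h libraries chose the members, so their values are given as a description without a test. The 8 h libraries played no part in the choice. The difference of group means between H2O2 and NCS at 8 h is therefore independent of it. Comparisons of 8 h with untreated cells are independent only on the 8 h side. The spread behind each SE, interval and p-value was estimated from all 21 libraries, including those that chose the members.

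Many transcripts that fall and recover within hours encode regulators. A transcription factor, a phosphatase of a signalling pathway or a chromatin enzyme often has a short-lived mRNA, so its level follows changes in synthesis quickly. In fibroblast-like cells such genes include the feedback inhibitors of the ERK pathway and the transcription factors that set mesenchymal identity. H2O2 activates the stress kinases JNK and p38, and NCS activates the DNA damage kinases that stabilize p53.

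Among the 19694 genes that were not 0 in every library, the median library value lay between 7.14 and 7.19. One library stood apart. In the second replicate of H2O2 at 8 h, 269 genes differed by more than 0.3 from the mean of the other 2 replicates, against 11 to 58 genes in each of the other 20 libraries. Of the members, 15 differed by more than 0.2 in that library, against 0 to 8 elsewhere, and results at 8 h are given with and without it. Of 10 markers of pancreatic duct epithelium, 4 lay below 2 in untreated cells, among them KRT19 at 0.60, EPCAM at -1.76 and CFTR at -1.34, and the other 6 ran from CDH1 at 3.77 to KRT18 at 11.6. All 10 markers of nestin-positive and mesenchymal cells lay above 8. Acinar and islet markers, and blood and endothelial markers, reached at most -1.63 and 3.07. Depth is unknown because the files hold no counts. In bulk RNA, fewer cells of a type and less RNA per cell cannot be told apart.

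The promoters of 4 members are shown first, because they carry the sequence bound by a factor that is itself a member. NFYA encodes the DNA-binding subunit of NF-Y, which binds CCAAT boxes. The windows run from 250 bases before to 50 bases after a transcription start site, 5′ to 3′ on the gene's strand, from RefSeq on GRCh38.p14. Capitals mark CCAAT or its reverse complement ATTGG. HAND2 and ZNF608 are members in both treatments, TXNIP had the deepest change of all members, and DUSP6 is the ERK phosphatase among the deepest. They were chosen after their values and their matches were seen, so they are no sample of the members. PHF15, the other member in both treatments, is not shown. It has 6 windows, and the only match lies at the start site of 1 of them. The windows of CCNG2, KIT, CDK12, SLC38A2 and TRIB2 hold none. The HAND2 window lies at chr4:173530180-173530479 on the minus strand, that of ZNF608 at chr5:124748775-124749074 on the minus strand, that of TXNIP at chr1:145996530-145996829 on the minus strand and that of DUSP6 at chr12:89352452-89352751 on the minus strand.
HAND2: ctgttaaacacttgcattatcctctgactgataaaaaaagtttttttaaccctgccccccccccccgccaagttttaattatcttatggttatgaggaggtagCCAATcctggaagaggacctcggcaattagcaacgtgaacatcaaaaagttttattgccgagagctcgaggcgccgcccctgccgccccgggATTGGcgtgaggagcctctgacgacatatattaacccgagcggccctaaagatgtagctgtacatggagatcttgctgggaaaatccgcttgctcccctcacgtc
ZNF608: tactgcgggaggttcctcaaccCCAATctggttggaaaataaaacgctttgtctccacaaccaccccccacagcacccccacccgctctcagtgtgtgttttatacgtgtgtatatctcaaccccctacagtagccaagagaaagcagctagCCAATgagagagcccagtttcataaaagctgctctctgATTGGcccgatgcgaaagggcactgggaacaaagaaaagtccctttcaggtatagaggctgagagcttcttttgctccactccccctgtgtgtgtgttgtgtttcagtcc
TXNIP: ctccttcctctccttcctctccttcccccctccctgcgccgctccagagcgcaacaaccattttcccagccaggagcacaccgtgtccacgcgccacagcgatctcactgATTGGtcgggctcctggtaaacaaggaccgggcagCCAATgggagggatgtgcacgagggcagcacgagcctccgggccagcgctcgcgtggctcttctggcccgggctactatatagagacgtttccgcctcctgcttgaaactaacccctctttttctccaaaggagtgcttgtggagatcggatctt
DUSP6: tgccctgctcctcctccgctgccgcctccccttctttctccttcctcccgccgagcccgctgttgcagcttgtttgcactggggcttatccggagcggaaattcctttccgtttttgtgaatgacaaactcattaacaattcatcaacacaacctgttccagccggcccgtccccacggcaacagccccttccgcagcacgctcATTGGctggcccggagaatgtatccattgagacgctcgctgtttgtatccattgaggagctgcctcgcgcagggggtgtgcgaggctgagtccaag
The windows hold 2, 3, 2 and 1 matches. TXNIP has a second start site in RefSeq whose window holds none.

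CCAAT on either strand was found for 45 of the 85 members with a RefSeq window, 52.9%, and for 5864 of 13852 tested genes, 42.3%. Counted by window, the shares were 37.5% of 144 member windows and 34.4% of 19832 windows. The site of the ETS factors (CCGGAAG) was in windows of 18.8% of these members and 17.9% of genes, and the TATA box (TATAAA) in 11.8% and 10.9%. The GC box (GGGCGG) was found for 69.4% and 68.8%, the E-box (CACGTG) for 16.5% and 11.5%, and the AP-1 site (TGANTCA) for 9.41% and 7.8%. The FOXO site (GTAAACA) was found for 7.06% and 3.64%, the NRF2 core (TGACNNNGC) for 18.8% and 18.6%, and the cyclic AMP response element (TGACGTCA) for 1.18% and 3.25%. Both strands were searched, and the CCAAT and GC boxes were counted whether or not they overlapped another motif. A match is a stretch of letters and not evidence of binding.

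H2O2 gave most of the members. At 4 h, 224 genes outside the left-out symbols lay more than 0.5 below untreated cells in H2O2, and 97 of these (43.3%) were back within 0.3 at 24 h. In NCS, 130 genes lay that low at 4 h and 13 (10%) were back. The fall limit alone, over all tested genes, was passed by 1.15% in H2O2 and 0.67% in NCS. It was passed in both treatments by 61 genes, of which 3 recovered in both, 2 in NCS alone and 0 in H2O2 alone.

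**Figure D1:**
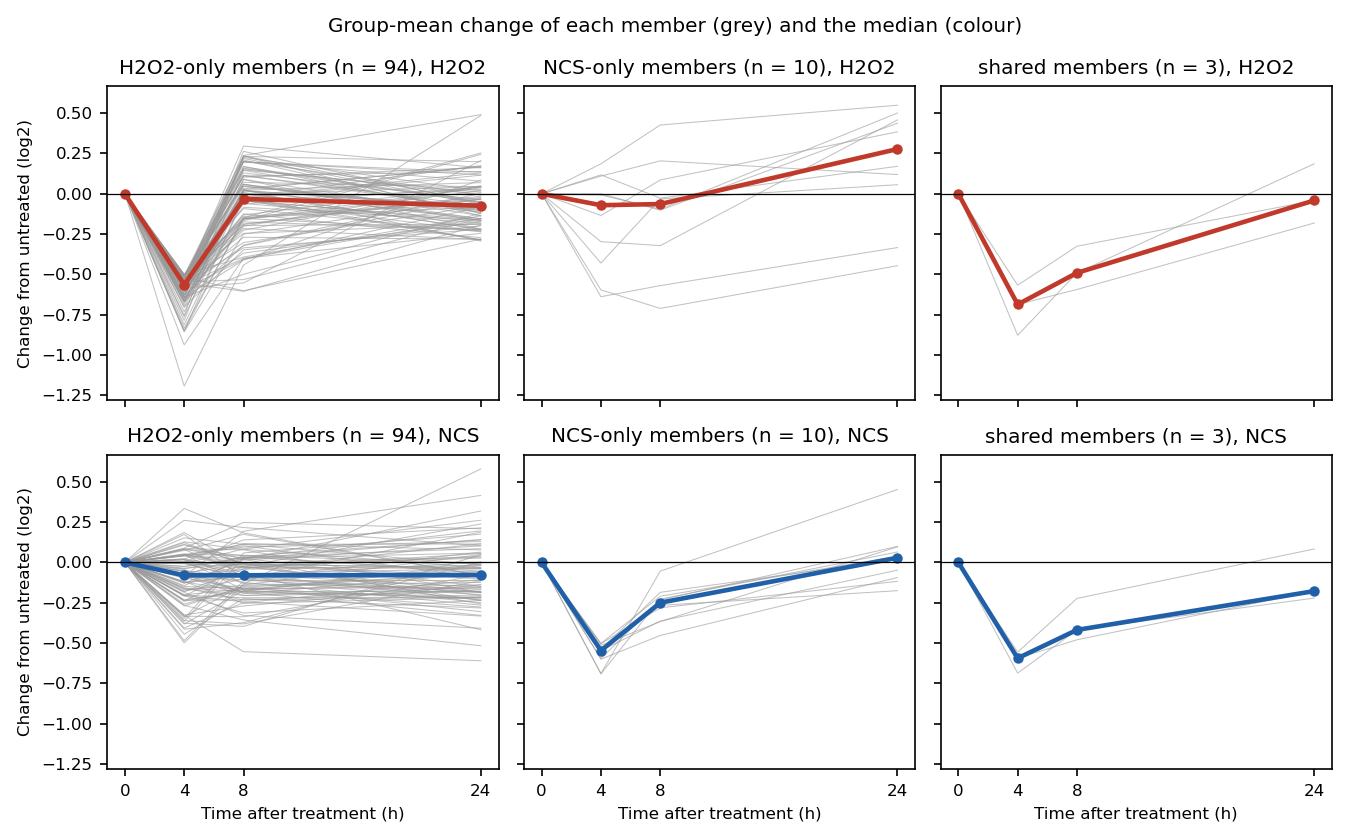
Change from untreated cells (y axis, log2) against time after treatment (x axis, h) for every member, by class (columns) and treatment (rows: H2O2 above, NCS below). Grey lines are single genes and the coloured line is their median. The H2O2-only median went from -0.56 at 4 h to -0.03 at 8 h in H2O2 and stayed at -0.08 in NCS, while the NCS-only median in NCS was still -0.25 at 8 h.

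In H2O2 the median change of the 94 H2O2-only members was -0.56 at 4 h, with a range from -1.19 to -0.50, and -0.07 at 24 h. At 8 h, which the rule did not use, it was -0.03 with a range from -0.60 to 0.30. The 8 h replicates lay above all 4 h replicates for 86 of the 94, an order found for 18.9% of all tested genes. Since the rule picked genes that were low at 4 h, nothing is read from this count. At 8 h, 33 members were within 0.1 of untreated cells and 17 still lay more than 0.3 below. In NCS the same members had medians of -0.08 at 4, 8 and 24 h. At 4 h, 14 of them lay more than 0.3 below untreated cells in NCS, against 1.985% of all tested genes. For 45 of the 94, all NCS replicates at 4 h lay below all untreated replicates, an order found for 16.3% of all tested genes. H2O2-only therefore means that the rule was not met in NCS, not that every member was unchanged there. The 10 NCS-only members had a median change in NCS of -0.55 at 4 h, then -0.25, and 0.03 by 24 h. Their 8 h replicates lay above all 4 h replicates for 10 of 10 members (13.3% of all genes), and below all untreated replicates for 9 of 10 (17.8% of all genes). Both counts use libraries that chose the members and are a description. In H2O2 their median was -0.07 at 4 h and -0.06 at 8 h, and 0.28 at 24 h.

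The 127 genes that passed the fall limit in H2O2 but stayed low at 24 h are set beside the members. The 24 h and untreated libraries made this split, and the 8 h changes use the same untreated libraries. The positions of these sets at 8 h are therefore a description without a test. Their median change in H2O2 was -0.64 at 4 h, close to that of the members, and -0.60 at 8 h and -0.81 at 24 h. At 8 h, 100 of the 127 lay more than 0.3 below untreated cells. They were also low in NCS, with medians of -0.44 at 4 h and -0.49 at 8 h. The 117 genes that stayed low after NCS lay at -0.76, -0.94 and -1.81 at 4, 8 and 24 h. The plot of the 4 h and 8 h changes after H2O2 shows members above most of the other genes at 8 h.

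**Figure D2:**
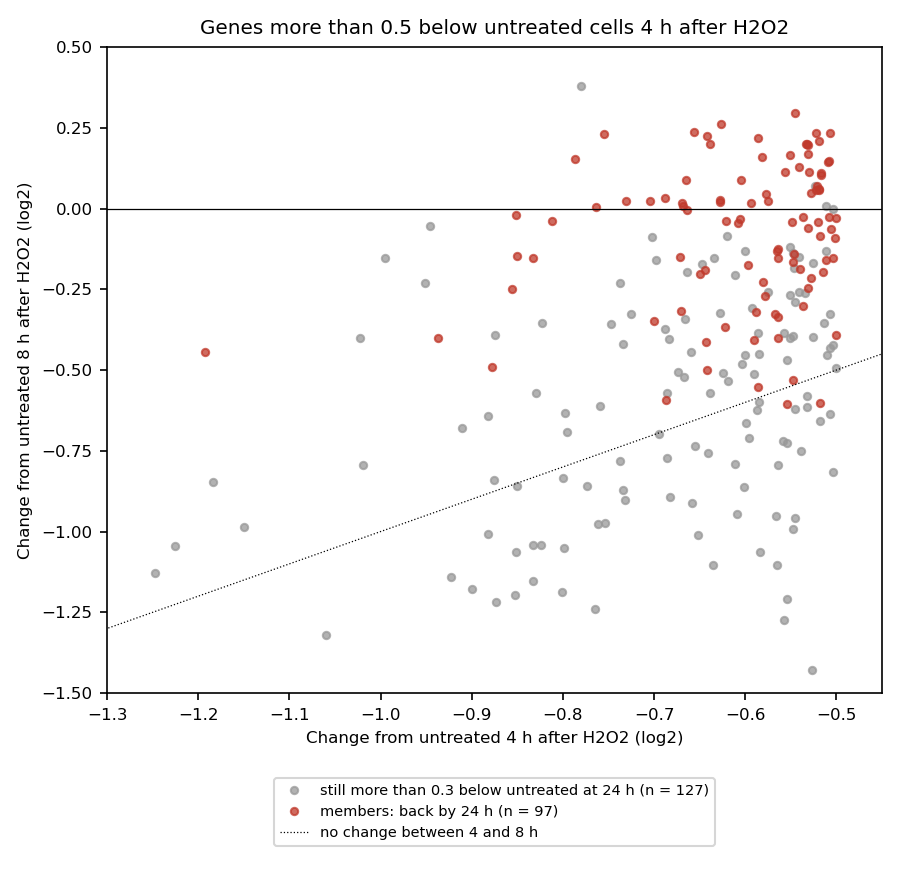
Change from untreated cells 8 h after H2O2 (y axis, log2) against the change at 4 h (x axis, log2) for the 224 genes more than 0.5 below untreated cells at 4 h. Red points are the 97 members back by 24 h and grey points the 127 genes still low at 24 h, and the dotted line marks an equal change at both times. Members cluster around the zero line at 8 h, and grey points spread down to -1.43.

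Against untreated cells at 8 h, 36 of the 94 H2O2-only members were lower in H2O2, 22 were higher and 36 did not pass the test (limma, adjusted p under 0.05). Over all tested genes, 37.4% were called, 18.6% lower and 18.8% higher. Here and below, such shares include genes at levels below any member and are not matched by level. Both comparisons with untreated cells use the same untreated libraries. In a fit of the 2 compared groups alone the higher count was 14. Without the library that stood apart the counts were 35 and 22. In NCS, 34 of the 94 were lower at 8 h and 7 higher, against a background of 23.9% called, 13.3% lower and 10.5% higher, and 13 were higher under quantile normalization. Of the 10 NCS-only members, 8 were lower in NCS at 8 h and 0 higher. In H2O2, 3 of these 10 were lower and 2 higher.

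The group means of H2O2 and NCS at 8 h hold no library used by the rule, though the estimate of the spread does. Between these groups, 26 of the 94 H2O2-only members were lower in H2O2, 33 were higher and 35 did not pass. The background was 34.1% called, 15.4% lower and 18.7% higher. It is not matched by level, since tested genes lay as low as -2.31 in untreated cells and H2O2-only members no lower than 6.44. The share called among genes at member levels was not computed, so no excess among members is read from these counts. The median difference was 0.06, against 0.00 over all genes. In a fit of these groups alone, 16 were lower. Of the NCS-only members, 7 of 10 were higher in H2O2 and 2 lower, with a median of 0.22. Without the library that stood apart the H2O2-only counts were 26 and 34, and 56 of these members kept their call and direction. A requirement of a difference over 0.3 as well left 7 lower and 4 higher among H2O2-only members, so most of these differences were small.

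**Figure D3:**
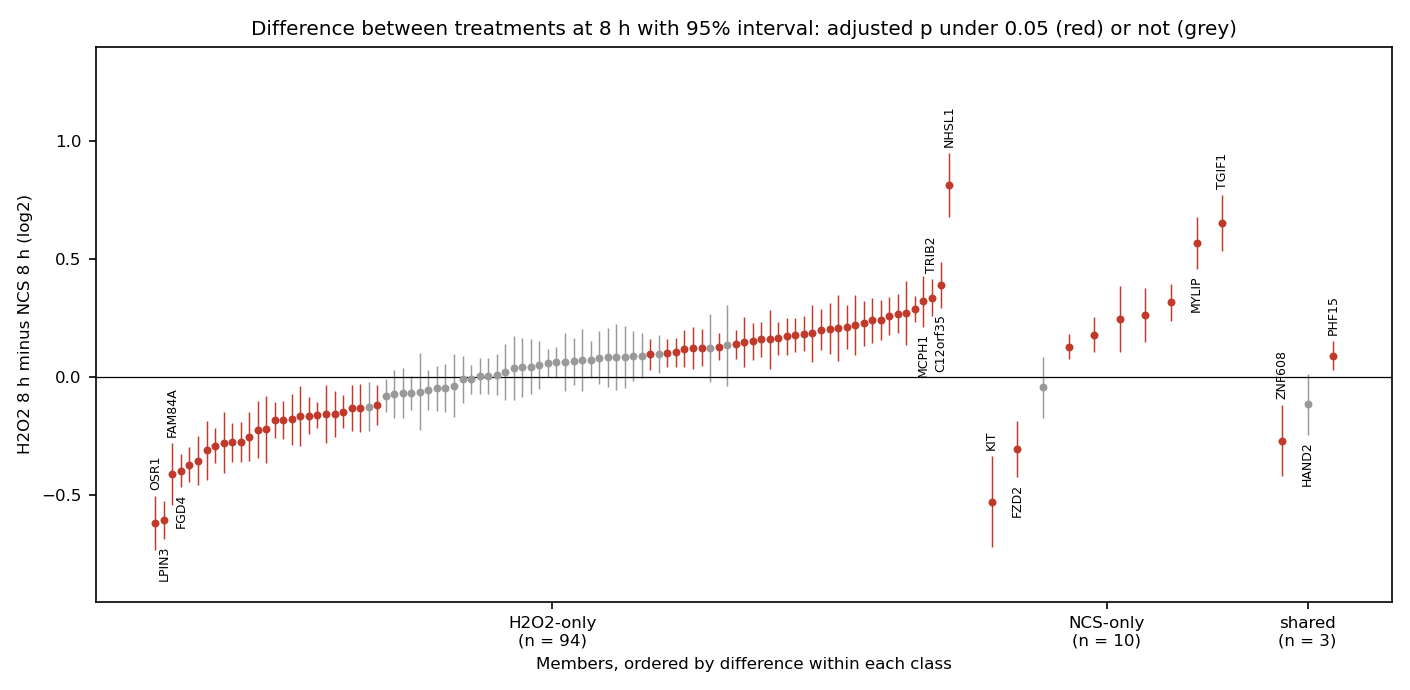
Difference between the H2O2 and NCS group means at 8 h (y axis, log2) for each member, ordered within each class (x axis). Points are differences, bars are 95% intervals from limma, red marks an adjusted p under 0.05 and grey the rest. NHSL1 at 0.82 lies highest and OSR1 at -0.62 lowest.

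Members were then grouped by known role. The role groups were made after the values were seen, so their counts describe the members and carry no test of the group. The deepest change was that of TXNIP, which encodes thioredoxin-interacting protein, an arrestin-fold protein that restrains thioredoxin and glucose uptake. Its values were 10.32, 10.26 and 10.40 in untreated cells, 9.15, 9.16 and 9.10 in H2O2 at 4 h, 9.85, 10.09 and 9.72 at 8 h, then 10.82, 10.77 and 10.84 by 24 h. In NCS they were 9.83, 9.84 and 9.82 at 4 h, 10.17, 10.22 and 10.19 at 8 h, then 10.89, 10.90 and 10.93 by 24 h. All replicates of both treatments were below untreated cells at 4 h and above them at 24 h. The NCS change at 4 h was -0.50 and missed the limit by less than 0.01, so TXNIP counted as H2O2-only. At 8 h it was lower in H2O2 than in NCS by -0.31 (SE 0.06, adjusted p = 0.000406 from limma). The 6 measured TXNIP and alpha-arrestin genes held 1 member. With H2O2 against NCS at 8 h, 2 were called lower and 2 higher, against 15.4% and 18.7% of all genes.

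Metabolism and transport held 6 H2O2-only members, TXNIP included. At 8 h in H2O2, 5 were lower than untreated cells and 3 were lower than in NCS, against 18.6% and 15.4% of all genes. LPIN3, a phosphatidate phosphatase, read 10.19, 10.23 and 10.28 in untreated cells, 9.63, 9.60 and 9.54 in H2O2 at 4 h, and 9.78, 9.92 and 9.76 at 8 h. In NCS at 8 h it read 10.44, 10.42 and 10.42, above all untreated replicates. Its difference between H2O2 and NCS at 8 h was -0.60 (SE 0.04, adjusted p = 2.41e-09 from limma). DSEL, a dermatan sulfate epimerase-like protein, had changes of -0.55 at 4 h and -0.53 at 8 h in H2O2 and of -0.15 at 24 h. SLC38A2, a transporter of neutral amino acids, was NCS-only, at -0.50 at 4 h in NCS and 0.12 in H2O2. At 8 h it was lower in NCS than in untreated cells by -0.21 (adjusted p = 0.000184 from limma).

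Signalling genes were the largest group of known role, with 15 H2O2-only members. At 8 h in H2O2, 9 were lower than in untreated cells and 1 was higher, and against NCS 6 were lower and 5 higher. Over all tested genes, 18.6% were lower and 18.8% higher against untreated cells, and 15.4% and 18.7% against NCS. DUSP6, the phosphatase that switches off ERK, read 9.21, 9.12 and 9.11 in untreated cells, 8.28, 8.23 and 8.37 in H2O2 at 4 h and 9.19, 9.10 and 9.08 at 8 h. In NCS it read 8.74, 8.78 and 8.69 at 4 h and 8.94, 8.79 and 8.95 at 8 h. Thus H2O2 lay below NCS in every replicate at 4 h and above it in every replicate at 8 h, when the difference was 0.23 (SE 0.04, adjusted p = 0.000518 from limma). TRIB2, a pseudokinase that steers protein degradation, followed the same order, which 34 of the 94 H2O2-only members and 4.29% of all tested genes showed. Its 4 h side follows from the choice of members. It read 8.16, 8.12 and 8.11 in untreated cells, 7.44, 7.44 and 7.55 in H2O2 at 4 h and 8.35, 8.32 and 8.44 at 8 h, with 8.03, 8.08 and 7.99 in NCS at 8 h. The 8 h difference was 0.34 (SE 0.04, adjusted p = 1.4e-06 from limma). At 24 h in H2O2 TRIB2 was the highest of the 97 members that recovered in H2O2, at 0.49, followed by TXNIP at 0.48, ARID4A at 0.25, PRICKLE2 at 0.24 and NAA16 at 0.21.

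MAP3K1, a kinase upstream of JNK and ERK, changed by -0.83 at 4 h in H2O2 and -0.20 in NCS. Its replicates at 8 h were 8.03, 8.10 and 7.92 in H2O2 and 7.92, 8.00 and 7.94 in NCS, which overlapped. MKL2, a coactivator of serum response factor now named MRTFB, changed by -0.86 in H2O2 and -0.09 in NCS at 4 h. PTPRJ, a receptor phosphatase, changed by -0.70 and -0.33. FGD4, an activator of the GTPase CDC42, read 11.99, 12.04 and 11.92 in H2O2 at 8 h and 12.42, 12.40 and 12.31 in NCS. This difference of -0.39 (SE 0.03, adjusted p = 6.1e-08 from limma) was among the 5 lowest of all members. MAML2, a coactivator of Notch receptors, was lower in H2O2 than in NCS at 8 h by -0.16 (adjusted p = 0.000138 from limma).

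PDGFRA and KIT, related receptor tyrosine kinases for platelet-derived growth factor and stem cell factor, were both more than 0.5 below untreated cells at 8 h in H2O2. PDGFRA read 10.63, 10.49 and 10.51 in untreated cells, 10.06, 10.02 and 10.00 in H2O2 at 4 h, 9.85, 10.19 and 9.79 at 8 h, then 10.30, 10.24 and 10.25 by 24 h. It was 1 of 4 H2O2-only members still more than 0.5 below untreated cells at 8 h, at -0.60 (SE 0.07, adjusted p = 1.01e-06 from limma). The second 8 h replicate lay nearest to untreated cells, and without it the difference was -0.73. KIT read 6.87, 6.98 and 7.03 in untreated cells, 6.31, 6.48 and 6.30 in H2O2 at 4 h, 6.06, 6.51 and 6.17 at 8 h, then 6.52, 6.49 and 6.52 by 24 h. It passed the fall limit in both treatments but recovered in NCS alone, where its 24 h replicates lay between 6.88 and 7.05 and overlapped untreated cells. At 8 h KIT was lower in H2O2 than in NCS by -0.53 (SE 0.09, adjusted p = 0.000181 from limma). Of 36 receptor tyrosine kinase and ERK feedback genes measured, 3 were members, and 5 were called lower and 18 higher with H2O2 than with NCS at 8 h. Over all tested genes, which include levels below any member, 0.543% were members, 15.4% were called lower and 18.7% higher. The median difference of that list was 0.11.

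In the WNT pathway, FZD2 and TCF7L2 were NCS-only members among 38 genes measured. Members made up 5.26% of this list, against 0.543% of all tested genes, a background not matched by level. The fall limit at 4 h was passed by 3 genes of the list in H2O2 and by 2 in NCS. FZD2, a WNT receptor, read 10.27, 10.25 and 10.25 in untreated cells, 9.69, 9.73 and 9.70 in NCS at 4 h and 10.16, 10.05 and 10.03 at 24 h. Like KIT it passed the fall limit in H2O2 too, at -0.64, and stayed at -0.33 at 24 h. At 8 h it was lower in H2O2 than in NCS by -0.30 (adjusted p = 0.000341 from limma). TCF7L2, a transcription factor of the pathway, changed by -0.50 in NCS and -0.43 in H2O2 at 4 h. It went the other way at 8 h, 0.25 higher in H2O2 than in NCS (SE 0.07, adjusted p = 0.00672 from limma). In the whole list 7 genes were lower and 11 higher in that comparison, against 15.4% and 18.7% of all genes.

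TGIF1, a homeodomain repressor of TGF-beta targets, had the deepest change among NCS-only members. It read 9.18, 9.20 and 9.14 in untreated cells, 8.48, 8.51 and 8.47 in NCS at 4 h, 9.06, 8.87 and 8.91 at 8 h, then 9.22, 9.26 and 9.24 by 24 h. In H2O2 it read 9.41, 9.25 and 9.42 at 4 h and 9.71, 9.45 and 9.64 at 8 h, above all untreated replicates. At 8 h TGIF1 was 0.65 higher in H2O2 than in NCS (SE 0.06, adjusted p = 9.55e-08 from limma). Of 42 TGF-beta, BMP and activin genes measured, 7 were lower and 20 higher in that comparison, with a median of 0.08, against the same shares of all genes (15.4% and 18.7%).

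**Figure D4:**
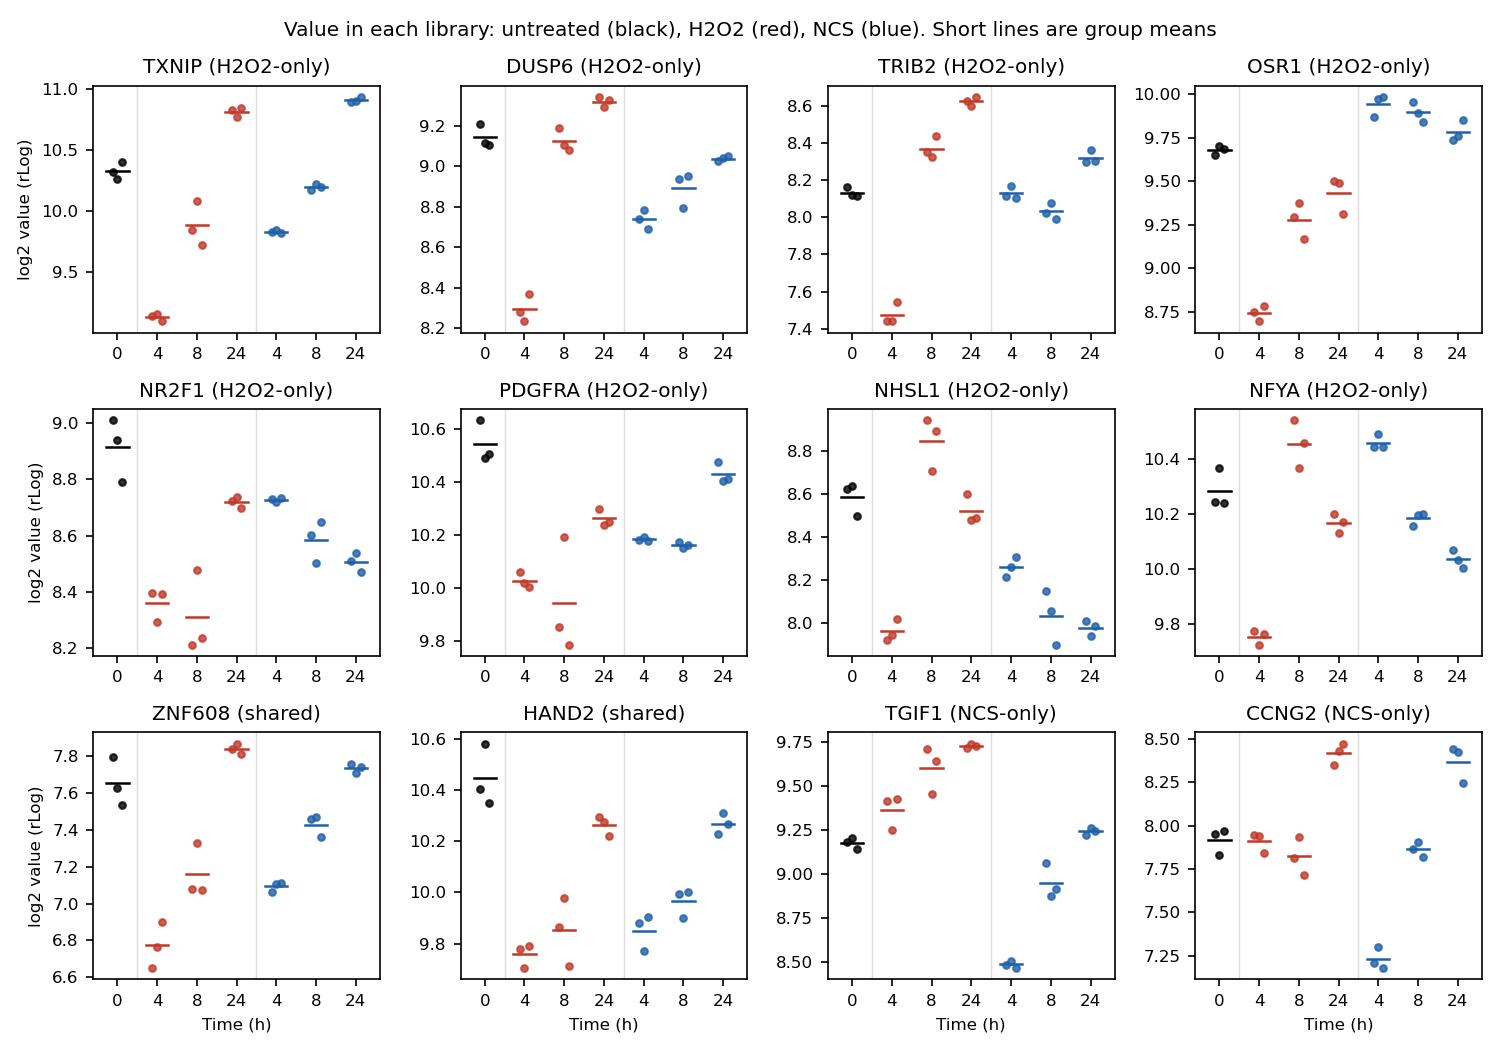
Deposited log2 values (y axis) of 12 members in every library, by time (x axis, h), in untreated cells (black), H2O2 (red) and NCS (blue). Short lines are group means. TXNIP, ZNF608 and HAND2 lay low at 4 h in both treatments, TGIF1 and CCNG2 in NCS only, and NR2F1 and PDGFRA were still low at 8 h in H2O2.

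All 5 H2O2-only members among the developmental and mesenchymal transcription factors were lower than untreated cells at 8 h in H2O2. Their median change was -0.41, and 3 of the 5 were lower than in NCS. Over all genes, 18.6% were lower than untreated cells and 15.4% lower than in NCS. The members were chosen as low at 4 h against the same untreated libraries. Changes of these 5 at 8 h ran from -0.60 for NR2F1 to -0.20 for TBX18. A list of 76 genes of the SOX, FOX, GATA, T-box, RUNX, SNAI and TWIST families holds TBX18. Of these, 12 were lower and 17 higher than untreated cells at 8 h in H2O2, against 18.6% and 18.8% of all genes. OSR1, a zinc finger factor of mesoderm and kidney development, read 9.65, 9.70 and 9.69 in untreated cells, 8.75, 8.70 and 8.78 in H2O2 at 4 h, 9.29, 9.38 and 9.17 at 8 h, then 9.50, 9.49 and 9.31 by 24 h. In NCS it read 9.87, 9.97 and 9.98 at 4 h and 9.96, 9.89 and 9.84 at 8 h, above all untreated replicates. The 8 h difference of -0.62 (SE 0.05, adjusted p = 1.09e-07 from limma) was the lowest of all members.

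NR2F1 and NR2F2 encode the orphan nuclear receptors COUP-TF1 and COUP-TF2. NR2F1 read 9.01, 8.94 and 8.79 in untreated cells, 8.40, 8.29 and 8.39 in H2O2 at 4 h and 8.21, 8.48 and 8.24 at 8 h. Its 4 h and 8 h replicates overlapped, and the 8 h change was -0.60 (SE 0.06, adjusted p = 3e-07 from limma). In NCS, where it is no member, the change of NR2F1 was -0.19 at 4 h, then -0.33, and -0.41 by 24 h. NR2F2 changed by -0.59 in H2O2 and -0.41 in NCS at 4 h, and at 8 h its difference between treatments was -0.03 (adjusted p = 0.768 from limma). BNC2, a zinc finger factor of fibroblasts, was at -0.50 at 8 h in H2O2 and -0.34 in NCS. TBX18, a T-box factor of mesenchyme, was at -0.20 and -0.19. The 2 receptors were the only members among 42 nuclear receptors measured, of which 2 were called lower and 9 higher with H2O2 than with NCS at 8 h, against 15.4% and 18.7% of all genes.

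The 3 shared members were transcription or chromatin regulators. HAND2, a basic helix-loop-helix factor of heart and limb mesenchyme, read 10.41, 10.58 and 10.35 in untreated cells, 9.78, 9.71 and 9.79 in H2O2 at 4 h and 9.88, 9.77 and 9.90 in NCS. At 8 h it read 9.87, 9.98 and 9.71 in H2O2 and 9.99, 9.90 and 10.00 in NCS. These groups overlapped, and the difference of -0.11 did not pass (95% interval -0.24 to 0.01, adjusted p = 0.17 from limma). Without the library that stood apart it was -0.18 and did pass (adjusted p = 0.0298). ZNF608, a zinc finger protein, read 7.80, 7.63 and 7.53 in untreated cells, 6.65, 6.77 and 6.90 in H2O2 at 4 h and 7.06, 7.11 and 7.11 in NCS. At 8 h it was lower in H2O2 than in NCS by -0.27 (SE 0.07, adjusted p = 0.00689 from limma), a call lost in a fit of these groups alone (adjusted p = 0.0562). PHF15, a PHD finger protein of histone acetyltransferase complexes now named JADE2, read 10.34, 10.31 and 10.33 in untreated cells, 9.81, 9.78 and 9.69 in H2O2 at 4 h and 9.62, 9.66 and 9.65 in NCS. It was 0.09 higher with H2O2 than with NCS at 8 h (SE 0.03, adjusted p = 0.0162 from limma). That call was lost under quantile normalization, in a fit of these groups alone and without the library that stood apart. Leaving out replicate 3 of H2O2 at 8 h or replicate 2 of NCS at 8 h also lost it. All 3 were lower than untreated cells at 8 h in both treatments, and none was higher. Over all genes, 18.6% were lower in H2O2 and 13.3% in NCS.

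Chromatin genes supplied 11 H2O2-only members. At 8 h in H2O2, 3 were lower than untreated cells and 1 higher, and 6 were higher and 2 lower than in NCS. Against untreated cells, 18.6% of all genes were lower and 18.8% higher. TET1, an enzyme that oxidizes methylcytosine, read 6.78, 6.65 and 6.75 in untreated cells, 6.06, 6.06 and 5.87 in H2O2 at 4 h, and 6.88, 6.69 and 6.69 at 8 h. It was 0.21 higher with H2O2 than with NCS at 8 h (SE 0.07, adjusted p = 0.0206 from limma). PHF3, which binds RNA polymerase II, changed by -0.52 in H2O2 and -0.23 in NCS at 4 h. At 8 h PHF3 read 10.72, 10.63 and 10.67 in H2O2 against 10.38, 10.38 and 10.40 in NCS, higher by 0.29 (SE 0.03, adjusted p = 1.09e-07 from limma). CHD6, a chromatin remodeller, went the other way, at -0.37 (SE 0.04, adjusted p = 2.94e-07 from limma). ARID4A, a partner of RB, was also lower in H2O2, by -0.18 (adjusted p = 0.0121 from limma). NCOA2, a nuclear receptor coactivator, was at 0.07 (adjusted p = 0.321 from limma). Of 118 chromatin modifiers measured, 6 were members, 5.08% against 0.543% of all tested genes. That background is not matched by level. Tested genes lay as low as -2.31 in untreated cells, and no member lay below 6.44. Of 10042 coding genes within the range of member levels, 104 were members. In the list 15 were called lower and 53 higher with H2O2 than with NCS at 8 h, with a median of 0.07, against 15.4% and 18.7% of all genes.

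The 9 members of RNA synthesis and processing were all H2O2-only. At 8 h, 7 of them were higher in H2O2 than in NCS and 0 lower, against 18.7% higher and 15.4% lower over all tested genes. CDK12, a kinase of the RNA polymerase II tail, read 11.16, 11.21 and 11.14 in untreated cells, 10.68, 10.68 and 10.61 in H2O2 at 4 h and 11.37, 11.27 and 11.30 at 8 h. In NCS it stayed between 11.20 and 11.26 at 4 and 8 h. RPRD2, a partner of the polymerase tail, changed by -0.64 at 4 h and was 0.24 higher with H2O2 than with NCS at 8 h (SE 0.04, adjusted p = 0.000104 from limma). METTL16, an RNA methyltransferase, was also 0.24 higher (adjusted p = 0.000325 from limma). Others of this group were MEPCE, which caps 7SK RNA, TNRC6B, a scaffold of microRNA silencing, GIGYF1, a translation repressor, CSTF1, a cleavage factor subunit, PDE12, a poly(A) ribonuclease, and FTSJD1, a cap methyltransferase now named CMTR2.

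Other transcription factors and zinc finger genes gave 11 H2O2-only members. NFYA read 10.25, 10.37 and 10.24 in untreated cells, 9.77, 9.72 and 9.76 in H2O2 at 4 h and 10.54, 10.37 and 10.46 at 8 h. In NCS it read 10.44, 10.49 and 10.44 at 4 h, then 10.16, 10.20 and 10.20 by 8 h. The order of the treatments thus changed between 4 and 8 h, when NFYA was 0.27 higher in H2O2 (SE 0.04, adjusted p = 2.59e-05 from limma). ZBTB16, the transcription factor PLZF, was 0.21 higher in H2O2 at 8 h (adjusted p = 0.00344 from limma). MGA, a partner of MAX that opposes MYC, was 0.12 higher (adjusted p = 0.0162 from limma). TRERF1, a zinc finger regulator, changed by -0.85 in H2O2 and -0.45 in NCS at 4 h and was at 0.08 between them at 8 h (adjusted p = 0.145 from limma). NFIL3, a clock-linked repressor and NCS-only member, changed by -0.60 in NCS and -0.13 in H2O2 at 4 h. It was 0.32 higher with H2O2 than with NCS at 8 h (adjusted p = 2.87e-06 from limma). Of 592 genes named ZNF, ZFP, ZSCAN, ZKSCAN or ZBTB, 8 were members, 1.35%. The list as a whole had 266 genes higher and 36 lower in H2O2 at 8 h than in untreated cells, with a median of 0.11, against 18.8% and 18.6% of all genes. The zinc finger members with no value above were ZNF215, ZNF318, ZNF407, ZNF618, ZNF678 and ZNF827, whose H2O2 changes at 4 h lay between -0.59 and -0.51.

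DNA repair and cell cycle members were few. ERCC6, the transcription-coupled repair factor CSB, read 11.09, 11.17 and 11.03 in untreated cells, 10.50, 10.42 and 10.50 in H2O2 at 4 h and 10.70, 10.80 and 10.68 at 8 h. The 8 h replicates in NCS read 11.01, 10.97 and 11.03, with no overlap. SLX4, a scaffold of structure-selective nucleases, was likewise lower in H2O2 than in NCS at 8 h, by -0.27 (SE 0.04, adjusted p = 3.54e-05 from limma), as was ERCC6 (-0.27, adjusted p = 2e-05). MCPH1, a regulator of chromosome condensation, was 0.32 higher (SE 0.05, adjusted p = 6.95e-05 from limma). FZR1, an activator of the anaphase-promoting complex, was at -0.07 (adjusted p = 0.159). CCNG2, an atypical cyclin linked to arrest, was NCS-only. It read 7.95, 7.83 and 7.97 in untreated cells, 7.21, 7.30 and 7.18 in NCS at 4 h, 7.86, 7.91 and 7.82 at 8 h, then 8.44, 8.42 and 8.24 by 24 h. In H2O2 CCNG2 overlapped untreated cells at 4 h and read 8.35, 8.43 and 8.47 at 24 h. Its 24 h change in NCS, 0.45, was the highest of the 13 members that recovered in NCS, followed by 0.10 for both KLHL24 and NFIL3, 0.08 for ZNF608 and 0.06 for TGIF1. None of the 30 G2/M genes measured was a member, although 28 of them passed the fall limit in NCS at 4 h and 11 in H2O2. Over all tested genes, 0.67% and 1.15% passed it. None of 29 G1/S genes or 23 p53 targets was a member either, and 0 of them passed the fall limit in either treatment. Since 0.543% of all tested genes were members, nothing is read from the absence of members in lists of this size.

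Among the remaining NCS-only members, H1F0, the linker histone H1.0, changed by -0.60 in NCS and -0.30 in H2O2 at 4 h. At 24 h it read 11.70, 11.75 and 11.75 in H2O2 and 11.14, 11.21 and 11.20 in NCS, against 11.24, 11.28 and 11.30 in untreated cells. MYLIP, a ubiquitin ligase that degrades the LDL receptor, read 7.37, 7.47 and 7.33 in untreated cells, 6.75, 6.94 and 6.83 in NCS at 4 h and 7.02, 7.06 and 7.01 at 8 h. In H2O2 at 8 h it read 7.61, 7.52 and 7.65, and the difference between treatments was 0.57 (SE 0.05, adjusted p = 1.84e-07 from limma). KLHL24, an adaptor of a ubiquitin ligase, changed by -0.51 in NCS and 0.00 in H2O2 at 4 h.

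The H2O2-only class held 36 members not described so far or below, with changes at 4 h between -0.70 (PILRB) and -0.50. Among the signalling members were RGL1, TRAF5, AKAP13, SPATA13, BCL9 and HTR1F, a serotonin receptor that was lower in H2O2 than in NCS at 8 h by -0.22 (adjusted p = 0.00531 from limma). The chromatin members PIAS1, ARID2, PWWP2A, MLLT10, SHPRH and C14orf169 lay between 0.04 and 0.26 in that comparison, with the highest value that of C14orf169, a histone demethylase now named RIOX1. PLAG1, a zinc finger factor, was at 0.16, and PPP1R3D and PDP2, phosphatase subunits of glycogen and pyruvate metabolism, were at 0.02 and -0.05. Without an assigned role, DOPEY1 was lowest at -0.29 (adjusted p = 5.4e-06 from limma) and LYSMD1 highest at 0.27 (adjusted p = 0.00276 from limma). Between them lay SYNRG, ZBED5, NAV3, C2orf44, DEPDC5, AHDC1, CASKIN2, SLFN12, KIAA2026, ALKBH4, ARMC7, FAM102B, GON4L, PDIK1L, KIAA1432, ANKRD50, PILRB, FLJ45340 and FAM217B. PILRB and SLFN12 have near-identical relatives, and their reads may be shared.

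Members of no assigned role numbered 33 in the H2O2-only class. NHSL1, a relative of the Nance-Horan syndrome protein that acts on actin, differed most between treatments. It read 8.62, 8.64 and 8.50 in untreated cells, 7.92, 7.94 and 8.02 in H2O2 at 4 h, 8.94, 8.71 and 8.89 at 8 h, then 8.60, 8.48 and 8.49 by 24 h. In NCS it read 8.21, 8.26 and 8.31 at 4 h, 8.15, 8.05 and 7.90 at 8 h, then 8.01, 7.94 and 7.98 by 24 h, and so moved further from untreated cells while H2O2 returned. The 8 h difference was 0.82 (SE 0.06, adjusted p = 2.67e-08 from limma), and 0.89 without the library that stood apart. C12orf35, now named RESF1, was at 8 h higher with H2O2 by 0.39 (SE 0.05, adjusted p = 2.89e-06 from limma). FAM84A, now named LRATD1, was lower by -0.41 (SE 0.06, adjusted p = 4.06e-05 from limma). Other deep changes at 4 h in H2O2 were those of PRR12 (-0.81), CTTNBP2NL (-0.79), KIAA1586 (-0.76) and C17orf63 (-0.75). CTTNBP2NL, which binds cortactin, read 11.34, 11.22 and 11.28 at 8 h in H2O2, above all untreated replicates. NAA16, a subunit of an N-terminal acetyltransferase, was at -0.55 at 8 h and thus nearly as low as at 4 h (-0.59). With NR2F1, PDGFRA and DSEL it made up the 4 H2O2-only members more than 0.5 below untreated cells at 8 h in H2O2.

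The H2O2-only members had long transcripts, a feature that the rule did not use. GENCODE v29 gene models were found for 106 of the 107 members, 104 of them protein-coding. The median transcript of the 91 coding H2O2-only members was 6245 bases, with quartiles of 4070 and 7977. It was 3326 bases for 10042 coding genes whose mean value lay within the range of the members, and 2962 bases for all 16863 coding genes tested. In the 120 coding genes that were as low at 4 h in H2O2 but stayed low, the median transcript was 3898 bases. The genes that stayed low included 11 of the 30 G2/M genes measured. The 3′ untranslated part had medians of 2212 bases in H2O2-only members, 1181 in genes of their range and 998.5 in genes that stayed low. That part held a median of 5 ATTTA motifs, 2 in genes of their range and 2.5 in genes that stayed low. Per kb the medians were 2.29, 1.81 and 2.41. The median gene span was 70.4 kb in H2O2-only members, 34.4 kb in genes of their range and 46.8 kb in genes that stayed low. The 10 NCS-only members had a median transcript of 3073 bases. Length varied within the class, from TMEM177 at 1738 bases and OSR1 at 1936 bases to TNRC6B at 17933 bases. These are descriptions of gene models, not tests. Reads of HERC2P2, a transcribed pseudogene, and LUST, an antisense transcript of RBM5 now named RBM5-AS1, may in part be those of related or overlapping genes.

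**Figure D5:**
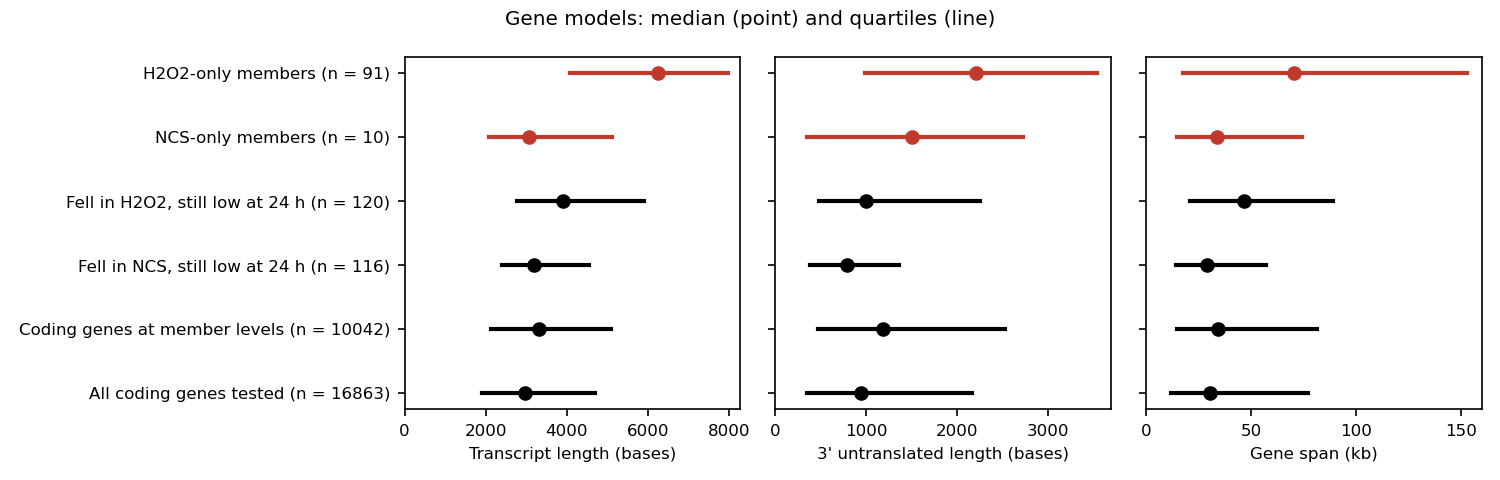
Transcript length (bases), 3′ untranslated length (bases) and gene span (kb) on the x axes for 6 sets of protein-coding genes on the y axis, from GENCODE v29. Points are medians and lines run between the quartiles. The H2O2-only members have the highest median in all 3 panels, 6245 bases, 2212 bases and 70.4 kb.

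Membership near the limits was close. In H2O2 the last genes inside the fall limit were FTSJD1, CHD6 and UGCG, at -0.50 each, and the first outside were ZFHX3, STARD9 and KIAA0754, also at -0.50 each. Inside the recovery limit lay TET1 at -0.29, CSTF1 at -0.29 and ZNF678 at -0.29 at 24 h, and outside it ZMYM1 at -0.31, AMD1 at -0.31 and TTLL4 at -0.31. In NCS, SLC38A2, TCF7L2 and KLHL24 lay just inside the fall limit, between -0.51 and -0.50, and TXNIP, GCNT1 and RSBN1 just outside, between -0.50 and -0.48. PHF15 at -0.22, HAND2 at -0.18 and FZD2 at -0.18 were the lowest at 24 h inside the NCS recovery limit, and BRD8 at -0.35, CNKSR3 at -0.36 and FAM100B at -0.40 the first outside. KLF12 and KLF2 met the rule in H2O2 and were left out by their symbols alone, with changes of -0.55 and -0.79 at 4 h and 0.22 and -0.29 at 24 h.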

How the data were processed

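RNA from hTERT-HPNE cells was sequenced in 7 groups of 3 biological replicates. The authors mapped reads by HISAT2, tallied genes with htseq-count and deposited DESeq2 rLog values, which are log2 counts normalized for library size and shrunk for low counts. The build was hg19 per the submitters' processing notes, and versions and strand setting were not given in the sources used here. Shrinkage makes differences smaller for low genes, and depth is unknown. Counts and therefore count tests were not used here. Of 23368 genes, 3674 were 0 in every library and 19694 were tested. One limma 3.58.1 fit with a mean-variance trend (R 4.3.3) covered the 7 groups, with Benjamini-Hochberg adjustment over all tested genes and calls at an adjusted p under 0.05. Values of 3 against 3 libraries cannot go below an exact permutation p of 0.1, so no permutation test was run.

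Tested on simulated data for H2O2 against NCS at 8 h over 19694 genes, the fit recovered 100 of 100 genes changed by 0.5 and 100 of 100 changed by 1, and 8.26% of its calls were unchanged genes. The members and gene lists were chosen with earlier results of these data known. Genes were named by rule: the 10 deepest changes at 4 h in each class, all shared members, members of the gene lists, genes next to each limit, the 5 largest differences at 8 h in each direction, the 5 highest at 24 h in each treatment, and genes left out by symbol. Other members described were chosen after their values were seen. The effects of other scalings, filters, limits, fits and left-out libraries are given in the closing section. Gene models came from GENCODE v29, and promoter windows from RefSeq on GRCh38.p14.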

Additional observations from a re-analysis of the deposited data

Results flagged for a closer look

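For 34 members, all H2O2-only, every H2O2 replicate lay below every NCS replicate at 4 h and above every NCS replicate at 8 h. Over all tested genes this order was found for 4.29%, and the 8 h side alone for 21.5%. The lower position at 4 h follows from the way the members were chosen, and the difference between the times was not tested. The H2O2 minus NCS difference of group means went from -0.30 to 0.82 for NHSL1, from -0.48 to 0.39 for C12orf35, from -0.65 to 0.34 for TRIB2, from -0.54 to 0.32 for MCPH1, from -0.29 to 0.29 for PHF3 and from -0.65 to 0.27 for LYSMD1 between 4 and 8 h. It went from -0.71 to 0.27 for NFYA, from -0.62 to 0.26 for C14orf169, from -0.55 to 0.24 for RPRD2, from -0.50 to 0.24 for METTL16, from -0.44 to 0.23 for DUSP6 and from -0.64 to 0.22 for FAM217B. Smaller at 8 h were the differences that went from -0.65 to 0.21 for TET1, from -0.31 to 0.21 for ZBTB16, from -0.34 to 0.21 for MLLT10, from -0.31 to 0.20 for SPATA13, from -0.56 to 0.19 for PILRB and from -0.37 to 0.18 for GIGYF1. The difference went from -0.69 to 0.17 for ANKRD50, from -0.48 to 0.17 for TNRC6B, from -0.63 to 0.16 for PWWP2A, from -0.24 to 0.16 for PLAG1, from -0.50 to 0.15 for PIAS1 and from -0.64 to 0.15 for KIAA1432. It changed from -0.66 to 0.14 for CTTNBP2NL, from -0.50 to 0.13 for BCL9, from -0.44 to 0.13 for MEPCE, from -0.69 to 0.12 for MGA, from -0.53 to 0.12 for CSTF1, from -0.59 to 0.11 for CDK12 and from -0.57 to 0.10 for GON4L. The 8 h value did not pass the test for PDE12, which went from -0.56 to 0.10 (adjusted p = 0.0564 from limma), LUST, which went from -0.56 to 0.09 (adjusted p = 0.188 from limma) and TRERF1, which went from -0.40 to 0.08 (adjusted p = 0.145 from limma).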

How the results depend on the processing

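Class sizes followed the limits. A fall of more than 0.6 gave 37 H2O2-only, 3 NCS-only and 0 shared members, a fall of more than 0.4 gave 275, 32 and 11, and a 24 h limit of 0.1 gave 55, 8 and 1. Quantile normalization gave 68, 8 and 4, of which 58, 7 and 3 were members of that class before, and leaving out each library gave 87 to 109, 7 to 14 and 3 to 5.

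At 8 h, quantile normalization gave 13 H2O2-only members higher in NCS than in untreated cells, and 0 shared members higher in H2O2 than in NCS. A fit of only the groups compared gave 14 H2O2-only members higher in H2O2 than in untreated cells, 16 lower in H2O2 than in NCS, and 0 shared members called either way between treatments. With a difference over 0.3 required as well, 17 H2O2-only members were lower with H2O2 than in untreated cells and 0 higher, with 1 NCS-only member higher. In NCS against untreated cells 8 H2O2-only members were lower and 0 higher, and 3 NCS-only members were lower. Between H2O2 and NCS 7 were lower and 4 higher, with 3 NCS-only members higher and 0 shared members called. With a difference over 1 required, 0 members were called in any comparison.

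Leaving out each library gave, for H2O2-only members, 32 to 37 lower and 18 to 22 higher in H2O2 than in untreated cells, 26 to 36 lower and 4 to 10 higher in NCS, and 18 to 26 lower and 24 to 34 higher between H2O2 and NCS. Between treatments 1 to 2 shared members were lower and 0 to 1 higher. The cause of these changes was not tested.

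For 49 named genes in 3 comparisons, 3836 of 3969 values under 27 alternatives kept direction and call, 94 lost the call, 39 gained it and 0 changed direction. Replicate numbers were not treated as pairing the libraries, since the labels do not tie them and not every correlation of same-numbered deviations was over 0.1. These ran from -0.06 to 0.17 for H2O2 and untreated cells, from -0.05 to 0.21 for NCS and untreated cells, and from 0.04 to 0.19 for H2O2 and NCS (mean 0.14, against -0.07 for different numbers). With the replicate number as a block, 25 H2O2-only members were lower with H2O2 than with NCS and 32 higher, and 34 lower and 9 higher in NCS than in untreated cells. Depth could not be assessed without counts.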
